A study of Homo sapiens with 8 samples.

Results

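The genes of CTCF and the cohesin complex were taken as 10 members, found by their exact gene symbols among the 60282 genes listed for each library: CTCF, RAD21, SMC1A, SMC3, STAG1, STAG2, NIPBL, WAPL, PDS5A and PDS5B. All 10 members passed the filter on low counts, under which 14073 genes were tested. RNA was measured in SK-UT-1 cells, a long-established human line derived from uterine leiomyosarcoma, a malignant tumor of uterine smooth muscle. The vehicle group held 4 libraries of cells given DMSO, the solvent. The TP-472 group held 4 libraries of cells given 5 µM TP-472 for 48 h. TP-472 is a small molecule that inhibits the bromodomain proteins BRD9 and BRD7, and BRD9 is a subunit of a SWI/SNF chromatin remodeling complex. Both groups were the same cell line in culture, so they stand for 1 tumor cell line without its tissue. The study's methods state for its experiments in general that replicates were biological, but the sample labels do not say whether these libraries came from separate cultures, so the p-values measure the spread between these libraries, which may be technical.

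Cohesin is a ring-shaped protein complex that holds sister chromatids together from replication to mitosis and, in interphase, extrudes loops of chromatin. The ring consists of SMC1A, SMC3 and RAD21, to which either STAG1 or STAG2 binds. NIPBL activates and loads the ring, WAPL releases it from chromatin, and PDS5A and PDS5B regulate both steps. CTCF is a zinc finger protein that binds DNA at specific sites and halts cohesin there, so that many loops end at CTCF sites. STAG2 is a recurrent target of mutation in human cancers.

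The total count ran from 32574716 in vehicle replicate 3 to 38545695 in TP-472 replicate 1. Levels are given as CPM, that is, counts scaled to a common library size, here with TMM factors that also allow for differences in composition. Every member had at least 1652 counts in every library, and counting error was not compared with the spread between libraries. The mean level of PDS5B, the lowest of the members, stood at the 73.0th percentile of the tested genes, and that of PDS5A, the highest, at the 97.7th percentile. The label of the line was compared with smooth muscle markers. CALD1, which encodes the actin-binding protein caldesmon, was the most abundant of 9 markers, and 8 of the 9 were tested. ACTA2, smooth muscle actin, was at 160 ± 16.7 CPM in vehicle (SD, n = 4) and 109 ± 3.52 CPM in TP-472 (SD, n = 4). MYH11, the smooth muscle myosin heavy chain, was at 0.028 CPM or less in every vehicle library and at 0.264 CPM or less in every TP-472 library. With all 8 libraries 4 of the 8 were called (adjusted p under 0.05 and a fold change over 1.5), against 26.9% of all tested genes. All 4 were lower (14.9% of all genes were called lower). MYLK fell 2.83-fold and TAGLN 1.59-fold (adjusted p = 0.000757 and 0.00397 by edgeR). DES, which encodes desmin, was 5.14-fold lower and LMOD1 3.58-fold lower (adjusted p = 0.000189 and 0.00401 by edgeR). Both stayed under 1 CPM in every TP-472 library and passed the filter only through the vehicle group. Only a fall could therefore be called for them, and no conclusion rests on it. ACTA2 fell 1.47-fold (adjusted p = 0.00426 by edgeR), under the fold limit. Without vehicle replicate 3 MYLK fell 2.53-fold, TAGLN 1.57-fold and ACTA2 1.51-fold, which were called, and DES and LMOD1 did not pass the filter. The summed level of the 9 markers was 453, 491, 543 and 493 CPM in the vehicle libraries and 385, 382, 379 and 376 CPM in the TP-472 libraries, and its part in the members' levels was not tested. None of the 4 endothelial and none of the 4 haematopoietic markers passed the filter. Of 5 epithelial markers 3 passed, while EPCAM and CDH1 stayed under 1 CPM. The keratin gene KRT18, the most abundant of them, rose 2.11-fold with TP-472 (adjusted p = 0.000726 by edgeR) and KRT19 fell 1.80-fold (adjusted p = 0.0151). Their summed level was 17.5, 18.3, 23.1 and 18.9 CPM in the vehicle libraries and 24.4, 26.8, 24.7 and 20.4 CPM in the TP-472 libraries. All 4 mesenchymal markers passed, and the collagen gene COL1A2 fell 5.97-fold with all 8 libraries and 5.68-fold without vehicle replicate 3 (adjusted p = 1.74e-05 and 1.58e-07 by edgeR). COL1A1 fell 5.08-fold with all 8 libraries (adjusted p = 0.0222 by edgeR) and 2.75-fold without vehicle replicate 3 (adjusted p = 0.0143), a library in which it was at 21.9 CPM against 2.59 to 9.25 CPM in the other vehicle libraries. THY1, a surface protein gene, had a log2 fold change of 0.25 ± 0.190 (SE) with all 8 libraries (adjusted p = 0.318 by edgeR) and rose by 0.46 without vehicle replicate 3 (adjusted p = 0.00433). VIM, which encodes vimentin, had a log2 fold change of -0.41 ± 0.178 (SE) with all 8 libraries (adjusted p = 0.0983 by edgeR) and fell by 0.21 without vehicle replicate 3 (adjusted p = 0.0358). The mesenchymal sum, led by VIM, was 2913, 2705, 4306 and 2788 CPM in the vehicle libraries and 2067, 1996, 2140 and 2026 CPM in the TP-472 libraries. The part of these markers in the members' levels was not tested. In such bulk samples, fewer cells of a type and less RNA per cell cannot be told apart.

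Vehicle replicate 3 stood apart from the other libraries. The mean GC content of the transcripts, weighted by their counts, was 51.7% in that library, 49.1% to 49.6% in the other vehicle libraries and 48.6% to 50.1% in the TP-472 libraries. The members were affected unequally. STAG2 was at 0.483 times the mean of the other vehicle libraries in replicate 3, and WAPL and SMC3 were each at 0.542 times. STAG1 was at 0.612 times, PDS5A at 0.626 times, RAD21 at 0.674 times and PDS5B at 0.713 times. NIPBL at 0.927 times, CTCF at 0.958 times and SMC1A at 0.974 times were close to the other vehicle libraries. The longest transcripts of the members had GC contents of 36.5% (PDS5B) to 47.2% (SMC1A), all 10 under the median of the tested genes, 48.2%. Across 13970 tested genes with a GC content, the deviation of replicate 3 correlated with GC content with Pearson's r = 0.726, and across the 10 members with r = 0.669. These points share 1 library and are a description only. The tests of the members and of the other pathway genes named are therefore given with all 8 libraries and without vehicle replicate 3.

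**Figure D1:**
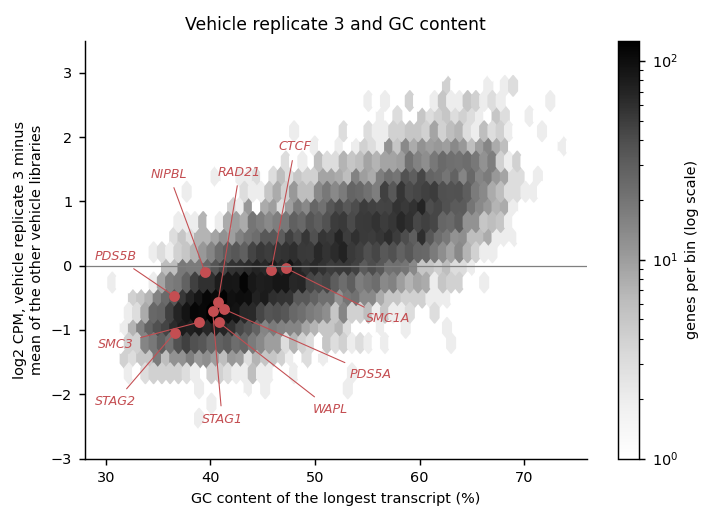
GC content of the longest transcript in percent (x axis) against the log2 CPM of vehicle replicate 3 minus the mean of the other vehicle libraries (y axis), for 13970 tested genes in gray bins, with the 10 members in red; 33 genes lie outside the axes. SMC1A and CTCF, the members richest in GC, lie near 0, and STAG2 lies lowest among the members.

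A gene was called when its adjusted p-value in the quasi-likelihood test of edgeR was under 0.05 and its fold change over 1.5. By that rule 0 of the 10 members were called with all 8 libraries, against 26.9% of all tested genes. By the adjusted p-value alone 0 of 10 passed, against 36.3% of all genes, and 1 member, STAG1, had an unadjusted p-value under 0.05, against 47.8% of all genes. DESeq2 found 1 member by adjusted p alone, again STAG1 (adjusted p = 0.0456), against 43.6% of all genes, and limma-voom found 0 (35.1% of all genes). With the trend with GC content removed, 7 of 10 passed by adjusted p alone (52.1% of all genes), 5 passed with a replicate block as well (41.9%), and with sample quality weights in limma-voom 9 passed (68.3%). When vehicle replicate 3 was left out, 6 of 10 members passed by the adjusted p-value alone, which was near the 57.1% of all genes, and 7 had an unadjusted p-value under 0.05 (62.1%). With the GC trend removed as well, 8 of 10 passed (58.2%). Among the 6 members that passed without vehicle replicate 3, STAG1 and WAPL rose, and RAD21, STAG2, PDS5A and PDS5B fell. None of these changes exceeded 1.5-fold, so 0 of 10 were called by both criteria, against 25% of all genes. The median log2 fold change of the members was -0.11 with all 8 libraries, beside -0.03 over all tested genes. In the 7 other libraries it was -0.20, with 3 members positive and 7 negative, while all genes were balanced, with 6939 positive and 6940 negative. TMM scaling centers the fold changes, so that balance is in part set by the scaling. The 50 tested genes of the related lists described below had a median of -0.18, with 14 positive and 36 negative.

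**Figure D2:**
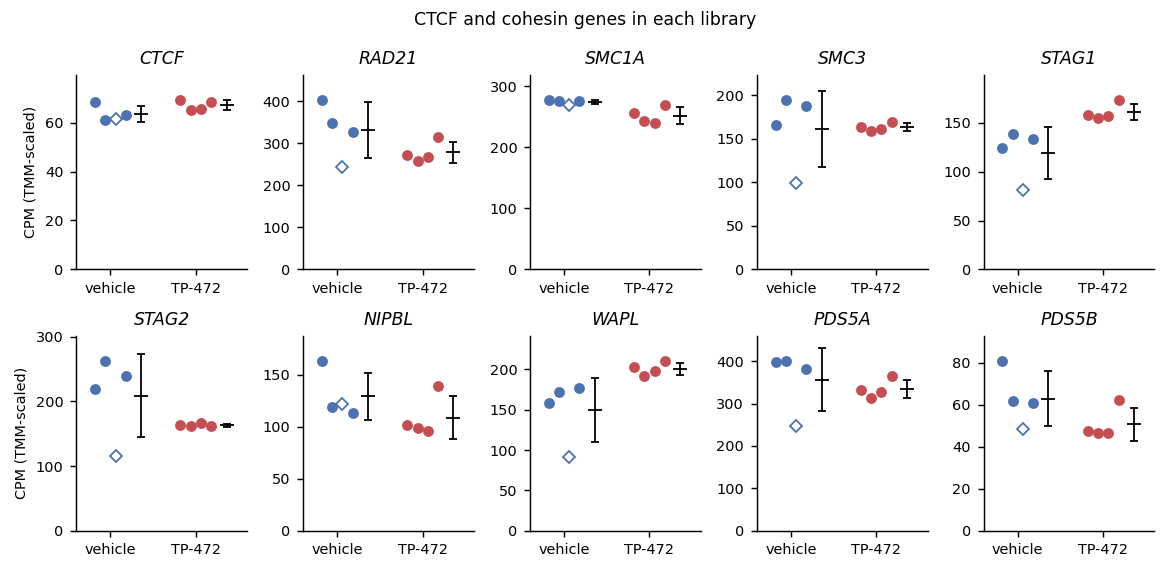
CPM after TMM scaling (y axis, from 0) of the 10 members in each vehicle library (blue) and TP-472 library (red), with the mean and SD of each group in black and vehicle replicate 3 as an open diamond. The vehicle and TP-472 points of STAG1 and WAPL do not overlap, and the open diamond is the lowest vehicle point in 8 of the 10 panels.

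**Figure D3:**
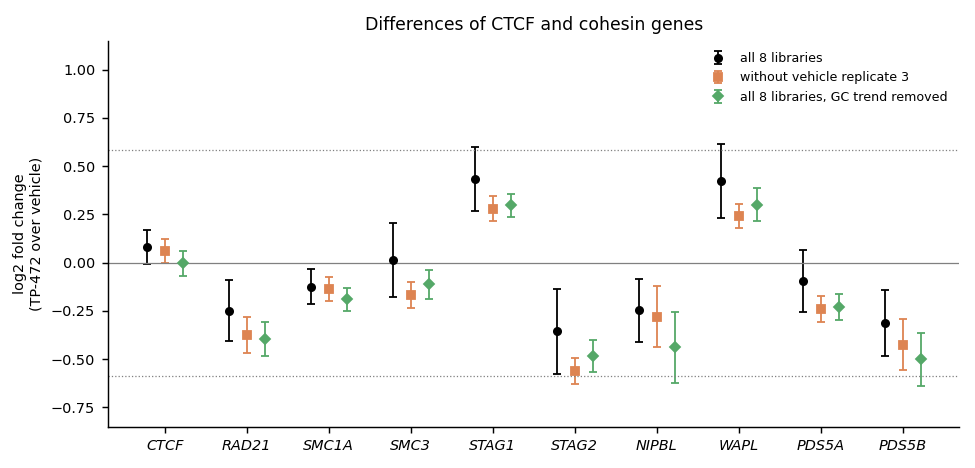
Log2 fold change of TP-472 over vehicle (y axis) for each member (x axis) from edgeR with all 8 libraries, without vehicle replicate 3, and with all 8 libraries after removing the trend with GC content. Bars are standard errors and dotted lines mark a fold change of 1.5, which no estimate passes.

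Among the ring subunits, RAD21, the kleisin that closes the ring and is cleaved by separase at anaphase, was the most abundant member per length of annotated exon, at 59.7 ± 12.1 CPM per kb in vehicle (SD, n = 4). RAD21 was at 403, 350, 243 and 328 CPM in vehicle replicates 1 to 4 and at 273, 258, 268 and 316 CPM in TP-472 replicates 1 to 4. The TP-472 libraries lay under the vehicle libraries other than replicate 3, which was lowest of all 8. With all 8 libraries the log2 fold change was -0.25 ± 0.158 (SE) with an adjusted p of 0.240 by edgeR. Without vehicle replicate 1, the highest library for RAD21, it was -0.15 (adjusted p = 0.491 by edgeR). RAD21 fell without vehicle replicate 3 by 0.38 ± 0.0942 on the log2 scale, a 1.30-fold decrease (adjusted p = 0.00736 by edgeR), and the groups did not overlap. RAD21 lies on chromosome 8 and overlaps UTP23 on the opposite strand, a gene with a mean of 1000.4 counts.

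SMC1A, an ATPase of the ring encoded on the X chromosome (X:53374149-53422728, GENCODE 29 on GRCh38), was the steadiest member in vehicle. It was at 278, 276, 269 and 275 CPM in the vehicle libraries and at 257, 243, 239 and 269.1 CPM in the TP-472 libraries. The highest TP-472 library, replicate 4, just exceeded vehicle replicate 3, and without that vehicle library the groups did not overlap. SMC1A had a log2 fold change of -0.12 ± 0.0900 (SE) with all 8 libraries (adjusted p = 0.30 by edgeR) and -0.14 ± 0.0618 without vehicle replicate 3 (adjusted p = 0.0817).

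SMC3, the partner ATPase (10:110567691-110604636), had the smallest difference of the members with all 8 libraries. It was at 166, 195, 99.1 and 188 CPM in the vehicle libraries and at 164, 159, 162 and 170 CPM in the TP-472 libraries. All TP-472 libraries lay between vehicle replicate 3 and vehicle replicate 2. SMC3 had a log2 fold change of 0.01 ± 0.193 (SE) with all 8 libraries (adjusted p = 0.960 by edgeR) and -0.17 ± 0.0673 without vehicle replicate 3 (adjusted p = 0.0578), so its sign depended on that library.

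STAG1 and STAG2, the alternative subunits that bind the ring through RAD21, had differences of opposite sign. STAG1 (3:136336233-136752403) was at 124, 138, 80.8 and 134 CPM in the vehicle libraries and at 158, 155, 157 and 173 CPM in the TP-472 libraries. Every TP-472 library exceeded every vehicle library. The log2 fold change of STAG1 was 0.43 ± 0.165 (SE) with all 8 libraries, which did not pass (adjusted p = 0.0674 by edgeR). STAG1 rose without vehicle replicate 3 by 0.28 ± 0.0654 on the log2 scale, 1.21-fold (adjusted p = 0.00515 by edgeR). STAG1 overlaps PCCB on the opposite strand, a gene with a mean of 2223 counts. The libraries were strand-specific, and the strand setting of the counting is not given in the sources used here.

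STAG2 (X:123960212-124422664) was at 219, 262, 116 and 239 CPM in the vehicle libraries and at 164, 161, 166 and 161 CPM in the TP-472 libraries. The TP-472 libraries lay close together, below every vehicle library except replicate 3. STAG2 had a log2 fold change of -0.36 ± 0.220 (SE) with all 8 libraries (adjusted p = 0.227 by edgeR). STAG2 fell without vehicle replicate 3 by 0.56 ± 0.0678 on the log2 scale, a 1.47-fold decrease that was the largest among the members in that comparison (adjusted p = 0.000116 by edgeR). The study, whose fold limit was also 1.5, lists STAG2 as lower with TP-472 by just over that limit.

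The ratio of STAG1 to STAG2 counts within a library does not depend on how libraries are scaled. It was 0.567, 0.529, 0.697 and 0.559 in the vehicle libraries and 0.962, 0.963, 0.945 and 1.07 in the TP-472 libraries. The groups did not overlap, and vehicle replicate 3, although lowest for both genes, lay on the vehicle side. The log2 ratio differed by 0.75, a 1.68-fold higher ratio in TP-472, with an exact two-sided permutation p of 0.0286, the smallest that 4 against 4 libraries allow. Adjusted over the 4 ratios examined between members, the p-value was 0.114 by the exact permutation test, so the difference did not pass the correction. With only 1 ratio at the smallest possible p, its adjusted value could not fall under 0.05, so the correction was out of reach for 1 ratio alone. The ratio was 1.79-fold higher without vehicle replicate 3, with an exact permutation p of 0.0286 and an adjusted value of 0.0571. STAG1 held 36.9% ± 2.86 of the summed STAG1 and STAG2 counts in vehicle (SD, n = 4) and 49.6% ± 1.46 in TP-472 (SD, n = 4). Per length of annotated exon, the shares were 37.1% ± 2.86 and 49.8% ± 1.46. The sum of both genes was 372 ± 28.8 CPM in vehicle without replicate 3 (SD, n = 3) and 324 ± 7.64 CPM in TP-472 (SD, n = 4). With replicate 3 the vehicle sum was 328 ± 90.7 CPM (SD, n = 4).

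**Figure D4:**
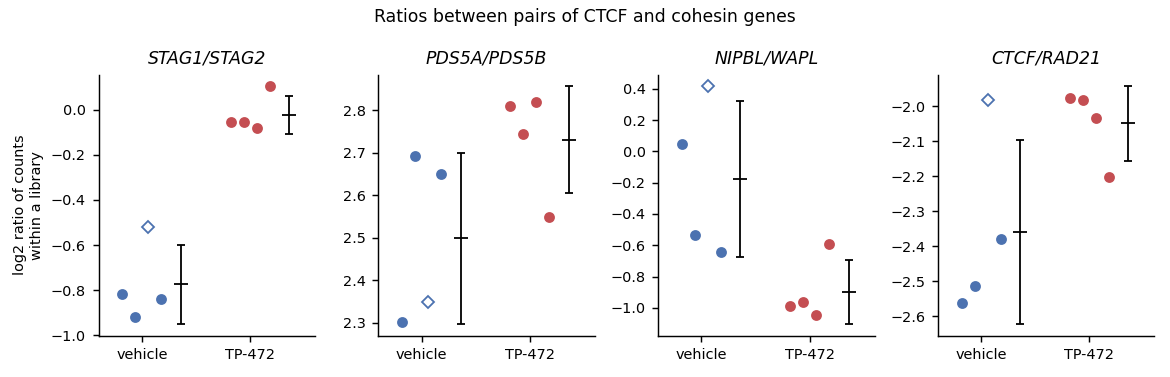
Log2 ratio of counts within a library (y axis; each panel has its own range) for STAG1/STAG2, PDS5A/PDS5B, NIPBL/WAPL and CTCF/RAD21 in vehicle (blue) and TP-472 (red) libraries, with the mean and SD in black and vehicle replicate 3 as an open diamond. The groups are separate for STAG1/STAG2 and overlap for the other ratios.

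The loader and the release factor were compared next. NIPBL (5:36876759-37066413), which stimulates loading and loop extrusion and is the gene most often mutated in Cornelia de Lange syndrome, was at 163, 119, 122 and 113 CPM in the vehicle libraries. It was at 102, 98.3, 96.0 and 139 CPM in the TP-472 libraries. The groups overlapped through TP-472 replicate 4, which was 1.41 times the mean of the other TP-472 libraries. Vehicle replicate 1 was likewise 1.41 times the mean of vehicle replicates 2 and 4. The log2 fold change of NIPBL was -0.25 ± 0.165 (SE) with all 8 libraries (adjusted p = 0.260 by edgeR) and -0.28 ± 0.159 without vehicle replicate 3 (adjusted p = 0.160). It was -0.12 without vehicle replicate 1 and -0.38 without TP-472 replicate 4 (adjusted p = 0.558 and 0.0946 by edgeR).

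WAPL (10:86435256-86521815), which opens the ring and removes it from chromatin, was at 158, 172, 91.4 and 177 CPM in the vehicle libraries and at 202, 192, 198 and 210 CPM in the TP-472 libraries. Every TP-472 library exceeded every vehicle library. The log2 fold change of WAPL was 0.42 ± 0.192 (SE) with all 8 libraries, which did not pass (adjusted p = 0.111 by edgeR). WAPL rose without vehicle replicate 3 by 0.24 ± 0.0629 on the log2 scale, 1.18-fold (adjusted p = 0.00867 by edgeR). STAG1 and WAPL were the 2 members of 10 whose groups did not overlap with all 8 libraries, against 45.4% of all tested genes. There were 6 such members without vehicle replicate 3, against 58.5% of all tested genes.

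The ratio of NIPBL to WAPL counts was 1.03, 0.691, 1.33 and 0.641 in the vehicle libraries and 0.504, 0.513, 0.485 and 0.663 in the TP-472 libraries. TP-472 replicate 4 lay among the vehicle values. The log2 ratio was lower in TP-472, with a difference of -0.72 (exact permutation p = 0.0571, adjusted 0.114). The difference was -0.52 without vehicle replicate 3 (exact permutation p = 0.0857, adjusted 0.114).

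The sequences before the starts of STAG1, WAPL and STAG2 are shown because STAG1 and WAPL had the most alike patterns of the members over all 8 libraries and the difference of STAG2 had the opposite sign. They come from RefSeq on GRCh38.p14, run 5′ to 3′ on the gene's strand within the 250 bases before the RefSeq start, and stop where an exon of the gene in GENCODE 29 begins. They lie at 3:136752404-136752628 on the minus strand for STAG1, at 10:86521816-86522042 on the minus strand for WAPL and at X:123960310-123960518 on the plus strand for STAG2. The STAG2 run lies inside the gene as GENCODE 29 annotates it, between exons, since that annotation starts the gene earlier than RefSeq does. Capitals mark matches on either strand to the motifs searched.
STAG1: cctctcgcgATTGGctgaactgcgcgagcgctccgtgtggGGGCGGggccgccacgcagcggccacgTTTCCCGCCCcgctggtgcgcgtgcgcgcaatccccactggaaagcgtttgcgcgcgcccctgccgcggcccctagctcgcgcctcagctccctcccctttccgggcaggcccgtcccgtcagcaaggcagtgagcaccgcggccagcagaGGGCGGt
WAPL: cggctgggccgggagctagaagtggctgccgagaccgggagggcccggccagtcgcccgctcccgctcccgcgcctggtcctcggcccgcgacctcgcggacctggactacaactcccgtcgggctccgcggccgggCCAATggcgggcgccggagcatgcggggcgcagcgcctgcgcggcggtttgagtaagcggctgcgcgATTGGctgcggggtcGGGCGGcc
STAG2: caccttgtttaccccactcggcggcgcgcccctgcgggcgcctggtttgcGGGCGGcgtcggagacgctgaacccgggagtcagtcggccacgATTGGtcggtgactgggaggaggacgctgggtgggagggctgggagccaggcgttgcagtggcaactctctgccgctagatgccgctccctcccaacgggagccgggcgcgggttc
A CCAAT box, with the letters CCAAT, occurred once in the STAG1 run, in 2 places in the WAPL run and once in the STAG2 run. The counts of members that follow are over the whole 250 bases before the RefSeq start, including the exonic bases left out of the runs shown. CCAAT was found there in 5 of the 9 members with a promoter in the table, against 32.0% of 35116 promoters. A GC box, GGGCGG, occurred in 3 places in the STAG1 run and once each in the WAPL and STAG2 runs. All 9 members held it, against 42.6% of the promoters. The 250 bases had a GC content of 52.8% (SMC3) to 78% (PDS5B) in the 9 members, above the median of all promoters, 58.0%, in 8 of them, and the part of GC content in the GC box count was not tested. The E2F motif TTTCCCGC was found in STAG1 alone, where it overlapped a GC box (1.39% of the promoters). A further E2F motif, TTTGGCGC, was found in NIPBL alone (0.55%). The ETS motif CCGGAAG was found in SMC1A and NIPBL (8.52%). None of the 9 held the E-box CACGTG (6.34%). The AP-1 motif TGACTCA was likewise in none of them (4.2%). A match is a stretch of letters and was not compared with binding data.

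PDS5A and PDS5B are related proteins that bind the ring and serve both WAPL-driven release and the acetylation of SMC3 that keeps cohesin on replicated DNA. PDS5A (4:39822863-39977956) was at 398, 399.8, 246 and 382 CPM in the vehicle libraries and at 332, 312, 328 and 365 CPM in the TP-472 libraries. All TP-472 libraries lay under the vehicle libraries other than replicate 3. PDS5A had a log2 fold change of -0.09 ± 0.162 (SE) with all 8 libraries (adjusted p = 0.668 by edgeR). PDS5A fell without vehicle replicate 3 by 0.24 ± 0.0683 on the log2 scale (adjusted p = 0.0136 by edgeR).

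PDS5B (13:32586427-32778019) was at 80.6, 61.8, 48.3 and 60.8 CPM in the vehicle libraries and at 47.3, 46.6, 46.4 and 62.3 CPM in the TP-472 libraries. TP-472 replicate 4 lay among the vehicle libraries, at 1.33 times the mean of the other TP-472 libraries. PDS5B had a log2 fold change of -0.31 ± 0.171 (SE) with all 8 libraries (adjusted p = 0.175 by edgeR). Without vehicle replicate 1, the highest library for PDS5B, it was -0.18 (adjusted p = 0.401 by edgeR). PDS5B fell without vehicle replicate 3 by 0.43 ± 0.132 on the log2 scale (adjusted p = 0.0204 by edgeR), although the groups still overlapped. The ratio of PDS5A to PDS5B counts was 4.93 to 6.47 in the vehicle libraries and 5.85 to 7.06 in the TP-472 libraries, a log2 difference of 0.23 (exact permutation p = 0.114, adjusted 0.114), and of 0.18 without vehicle replicate 3 (exact permutation p = 0.2).

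CTCF (16:67562407-67639185) was at 68.3, 61.2, 61.5 and 63.0 CPM in the vehicle libraries and at 69.2, 65.2, 65.5 and 68.6 CPM in the TP-472 libraries. The groups overlapped through vehicle replicate 1. CTCF had a log2 fold change of 0.08 ± 0.0884 (SE) with all 8 libraries (adjusted p = 0.492 by edgeR) and 0.06 ± 0.0609 without vehicle replicate 3 (adjusted p = 0.426). The ratio of CTCF to RAD21 counts was 0.169, 0.175, 0.253 and 0.192 in the vehicle libraries and 0.254, 0.253, 0.244 and 0.217 in the TP-472 libraries. Vehicle replicate 3 fell among the TP-472 values. The log2 difference of that ratio was 0.31 with all 8 libraries (exact permutation p = 0.114, adjusted 0.114) and 0.44 without vehicle replicate 3, where the groups did not overlap (exact permutation p = 0.0286, adjusted 0.0571). None of the 4 ratios passed the correction in either comparison, which would have needed at least 3 of the 4 at the smallest possible p.

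Per length of annotated exon, the order of the vehicle means after RAD21 was PDS5A at 47.2, SMC3 at 39.3, STAG2 at 31.5, SMC1A at 27.6, WAPL at 23.6, STAG1 at 18.1, CTCF at 13.5, NIPBL at 12.1 and PDS5B at 8.39 CPM per kb. With vehicle replicate 3 the SD was 9.72 CPM per kb for STAG2 and 10.6 CPM per kb for SMC3, as large as the steps between neighbors in that part of the order. The order was the same without that library, and the SDs of the 6 members next in it after RAD21 were smaller. PDS5A was at 52.1 ± 1.27 CPM per kb, SMC3 at 44.4 ± 3.68, STAG2 at 36.1 ± 3.26, SMC1A at 27.8 ± 0.122, WAPL at 26.6 ± 1.53 and STAG1 at 20.04 ± 1.11 (SD, n = 3). Among these 6, SMC1A and WAPL differed by less than the SD of WAPL and the other neighbors by more than either SD. In TP-472 WAPL stood at 31.6 ± 1.22 CPM per kb (SD, n = 4), above STAG2 at 24.6 ± 0.364 and SMC1A at 25.4 ± 1.39. STAG1 at 24.4 ± 1.27 CPM per kb then differed from STAG2 by less than its SD.

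Likeness of the members' patterns was described by Pearson's r of log2 CPM over the 8 libraries, which share vehicle replicate 3 and the treatment. Over the 45 pairs of members the median r was 0.42, with a range of -0.39 to 0.99, and 8 pairs were negative. STAG1 and WAPL were most alike with all 8 libraries (r = 0.990, and 0.973 without vehicle replicate 3). RAD21 and PDS5B were at 0.955 with all 8 libraries and were the most alike pair without vehicle replicate 3 (0.977), with vehicle replicate 1 and TP-472 replicate 4 the highest library of their group for both genes. NIPBL shared these high libraries and correlated with PDS5B at 0.882 and, without vehicle replicate 3, at 0.951. Over all tested genes, the deviations of these libraries from their group means correlated at 0.398, so the pattern was not limited to these members. STAG1 and STAG2 were at r = 0.331 with all 8 libraries and -0.819 without vehicle replicate 3. Without that library 19 of the 45 pairs were negative.

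Over all tested genes whose mean level reached 5 CPM, the most alike to RAD21 were RICTOR (r = 0.992), INSIG2 (0.992) and SHCBP1 (0.991). Those most alike to SMC3 were SOCS6 (0.998), USP47 (0.998) and PTAR1 (0.997), and to STAG2 they were MBOAT2 (0.997), DTL (0.996) and PMS1 (0.995). HNRNPA3 (0.988), QSER1 (0.986) and ZKSCAN8 (0.984) were most alike to NIPBL. CTCF had less close neighbors, AFDN (0.971), MTMR10 (0.961) and STS (0.928). All of these values are over the same 8 libraries, vehicle replicate 3 included.

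The members were set beside 54 other genes in 5 lists, of which 50 were tested. The lists were cohesin regulators, germline paralogs, condensin and SMC5/6, architectural factors with CTCF partners, and 12 general cell cycle markers. With all 8 libraries 4 of the 50 rose and 10 fell by adjusted p alone (17.2% of all tested genes rose and 19.1% fell), and 4 were also changed over 1.5-fold, all lower (14.9% of all genes were called lower). When vehicle replicate 3 was left out, 6 rose and 22 fell (28.6% and 28.5% of all genes), and 5 were called, all lower (13.1%). The median log2 fold change of the 50 genes was -0.19 and -0.18 in these comparisons.

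Of 14 cohesin regulators, 1 rose and 3 fell by adjusted p alone with all 8 libraries (17.2% and 19.1% of all tested genes). Without vehicle replicate 3, 1 rose and 5 fell (28.6% and 28.5% of all genes). ESPL1, which encodes separase, the protease that cuts RAD21, was at 90.4, 75.2, 134 and 80.3 CPM in the vehicle libraries and at 54.5, 51.5, 52.2 and 53.9 CPM in the TP-472 libraries, a 1.79-fold decrease (adjusted p = 0.00715 by edgeR). Vehicle replicate 3 was the highest library, and without it ESPL1 fell 1.55-fold. USP13, a deubiquitinase, was at 114, 88.8, 88.4 and 83.4 CPM in vehicle and at 56.6, 56.9, 54.7 and 71.99 CPM in TP-472, a 1.56-fold decrease (adjusted p = 0.00794 by edgeR), and fell 1.59-fold without vehicle replicate 3 (adjusted p = 0.00154). The groups did not overlap for either gene with all 8 libraries, which held for 45.4% of all tested genes. HDAC8, the deacetylase of SMC3, fell by 0.49 on the log2 scale (adjusted p = 0.0209 by edgeR), and by 0.55 without vehicle replicate 3 (adjusted p = 0.00243). CDCA5, which encodes sororin, the protector of cohesion, rose by 0.45 (adjusted p = 0.0100 by edgeR), and by 0.43 without vehicle replicate 3 (adjusted p = 0.00167). MAU2, the partner of NIPBL in loading, had a log2 fold change of -0.24 ± 0.177 (SE) and of -0.03 ± 0.0659 without vehicle replicate 3, and passed in neither. ESCO1 and ESCO2 encode the acetyltransferases of SMC3. ESCO1 had a log2 fold change of -0.03 ± 0.166 (SE) with all 8 libraries (adjusted p = 0.912 by edgeR) and of -0.17 ± 0.0810 without vehicle replicate 3 (adjusted p = 0.0954). ESCO2 had a log2 fold change of -0.03 ± 0.160 (SE) with all 8 libraries, which did not pass (adjusted p = 0.891 by edgeR), and fell by 0.18 ± 0.0532 without vehicle replicate 3 (adjusted p = 0.0153).

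The germline paralogs of cohesin and CTCF were at low levels. REC8, the meiotic kleisin that takes the place of RAD21, was the only 1 of 5 to pass the filter. It was at 10.2, 6.73, 22.6 and 6.72 CPM in the vehicle libraries and at 3.47, 2.82, 2.50 and 2.91 CPM in the TP-472 libraries. REC8 fell 3.95-fold with all 8 libraries (adjusted p = 0.00560 by edgeR) and 2.70-fold without vehicle replicate 3, its highest library. STAG3, RAD21L1 and SMC1B stayed under 1 CPM in every library, and CTCFL, the germline relative of CTCF, had 0 counts in all 8.

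Condensin and SMC5/6, the sister complexes of cohesin, had 1 of 14 genes higher and 4 lower with all 8 libraries (17.2% and 19.1% of all tested genes). In the fit without vehicle replicate 3, 1 was higher and 9 were lower (28.6% and 28.5% of all genes). NCAPD2 fell by 0.50 and NCAPG2 by 0.46 on the log2 scale with all 8 libraries (adjusted p = 0.0175 and 0.0147 by edgeR); both encode condensin subunits. They fell by 0.37 and 0.56 without vehicle replicate 3 (adjusted p = 0.000509 and 5.08e-05 by edgeR). NSMCE3, a subunit of the SMC5/6 complex, rose 1.48-fold (adjusted p = 0.0110 by edgeR), and 1.39-fold without vehicle replicate 3 (adjusted p = 0.00127). Of 9 other architectural factors and CTCF partners, 1 rose and 2 fell with all 8 libraries, and 1 rose and 4 fell without vehicle replicate 3. These counts stand beside the same shares of all genes, 17.2% and 19.1%, and then 28.6% and 28.5%. ZNF143, a zinc finger protein that binds many promoters, rose 1.47-fold (adjusted p = 0.00887 by edgeR), and 1.37-fold without vehicle replicate 3 (adjusted p = 0.000159). ZBTB7B, also a zinc finger protein, fell 1.99-fold with all 8 libraries (adjusted p = 0.0162) and 1.58-fold without vehicle replicate 3, where it was at 29.4 CPM against 13.8 to 14.7 CPM in the other vehicle libraries. YY1, a factor that joins promoters and enhancers, had a log2 fold change of -0.22 ± 0.0908 (SE) and did not pass with all 8 libraries (adjusted p = 0.0888 by edgeR), and it fell by 0.22 ± 0.0658 without vehicle replicate 3 (adjusted p = 0.0187).

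Cohesin is used in every division, so 12 cell cycle markers were measured beside it. With all 8 libraries 1 of 12, RRM2, rose (log2 fold change 0.41, adjusted p = 0.0375 by edgeR) and none fell. Over all tested genes 17.2% rose and 19.1% fell. In the fit without vehicle replicate 3, 3 rose, among them RRM2 (0.30, adjusted p = 0.00248), and 3 fell, against 28.6% and 28.5% of all genes. CDK1, the mitotic kinase, was at 221, 283, 104 and 266 CPM in the vehicle libraries and at 167, 179, 178 and 159 CPM in the TP-472 libraries. CDK1 had a log2 fold change of -0.36 ± 0.267 (SE) with all 8 libraries (adjusted p = 0.314 by edgeR) and fell 1.51-fold without vehicle replicate 3 (adjusted p = 0.000392 by edgeR). CCNE2, cyclin E2, had a log2 fold change of 0.68 ± 0.271 (SE) with all 8 libraries (adjusted p = 0.0761) and rose by 0.44 without vehicle replicate 3 (adjusted p = 0.00169). The summed level of the 12 markers, of which TOP2A was the most abundant, was 4171, 4108, 3574 and 3993 CPM in the vehicle libraries and 3551, 3556, 3569 and 3749 CPM in the TP-472 libraries. The summed level of the 10 members was 2057, 2033, 1377 and 1960 CPM and then 1767, 1690, 1726 and 1934 CPM. Both sums were lower in every TP-472 library than in every vehicle library other than replicate 3. The sum of the markers did not stand for each of them. Without vehicle replicate 3, 6 markers were positive and 6 negative, with a median log2 fold change of 0.02. The part of the cell cycle in the members' levels was not tested. BRD9, a target of the compound, had a log2 fold change of -0.16 ± 0.179 (SE) with all 8 libraries (adjusted p = 0.486 by edgeR). In vehicle replicate 3 BRD9 was at 1.67 times the mean of the other vehicle libraries, and without that library its log2 fold change turned to 0.05 ± 0.0610 (adjusted p = 0.483). BRD7, the other target, was at 0.11 ± 0.0856 with all 8 libraries (adjusted p = 0.324 by edgeR) and at 0.10 ± 0.0571 without vehicle replicate 3 (adjusted p = 0.144).

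**Figure D5:**
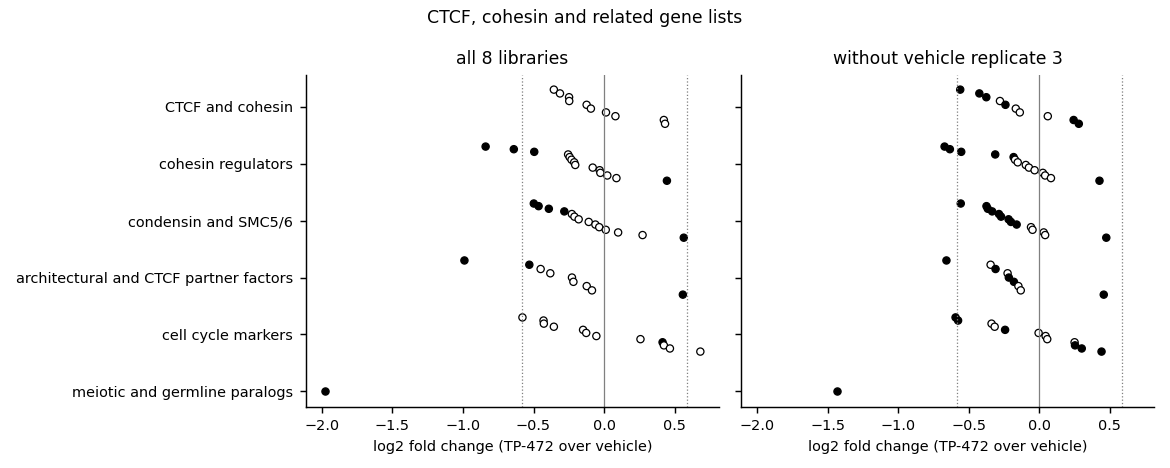
Log2 fold change of TP-472 over vehicle (x axis) of each tested gene in the CTCF and cohesin group and in 5 related lists (rows), with all 8 libraries (left) and without vehicle replicate 3 (right). Filled points have an adjusted p under 0.05, dotted lines mark a fold change of 1.5, and within a row points are spread in order of fold change; 0 of 10 CTCF and cohesin points are filled on the left and 6 of 10 on the right.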

How the data were processed

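Vehicle and TP-472 groups of SK-UT-1 cells held 4 strand-specific RNA libraries each, prepared from total RNA with an Illumina TruSeq kit. The authors mapped reads with Salmon 1.4.0 and summed its transcript estimates by gene with GENCODE 34, so the values as deposited are estimated counts, neither normalized nor filtered. They were rounded here, and between 13.75% and 23.22% of a library's values had not been whole. Genes over 1 CPM in 4 or more libraries were kept and tested with edgeR 4.0.16 in R 4.3.3 (TMM scaling, quasi-likelihood F test, no further terms, Benjamini-Hochberg adjustment over all genes tested). The fit without vehicle replicate 3 was filtered and scaled anew and tested 13879 genes. Ratios of counts (0.5 added) were compared by exact two-sided permutation and adjusted over 4 ratios. Named were all members, called genes and the largest change of each list, with further list genes chosen after their values were seen, and the 3 genes most alike to each of 5 members. Gene coordinates, exon lengths and GC contents came from GENCODE 29 on GRCh38, and promoters from RefSeq. Alternatives were DESeq2 1.42.0, limma 3.58.1 (voom, with and without quality weights), other scalings and filters, a robust fit, the replicate number as a block, removal of the GC trend and each library left out. The GC correction without vehicle replicate 3 was added after seeing the data. The members and the lists were chosen with earlier results of these data known. On simulated data (14073 genes, TP-472 against vehicle), 4, 24, 48 and 48 of 50 genes each were called at 1.5, 2, 3 and 4-fold changes, with 5 false calls. The simulated counts held no deviation of a library with GC content and no correlation between genes. These numbers therefore do not describe detection under those features of the real libraries. A change of exactly 1.5-fold lies at the fold limit, so its count does not measure detection of smaller changes.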

Additional observations from a re-analysis of the deposited data

Results flagged for a closer look

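In 42 groups of 4 libraries examined, 7 held a library far from the other 3, where chance gives about 1 in 20 for a single group. The groups reuse the same 8 libraries and hold genes with alike patterns. They are not independent, so an excess over chance cannot be read from this count. TP-472 replicate 4 was such a library for NIPBL (139 CPM, next 102), PDS5B (62.3 CPM, next 47.3), STAG1 (173 CPM, next 158), USP13 (71.99 CPM, next 56.9) and the log2 ratio of STAG1 to STAG2 (0.10, next -0.05). It was the highest TP-472 library in each. Vehicle replicate 3 was such a library for PDS5A (246 CPM, the lowest, next 382) and ZBTB7B (29.4 CPM, the highest, next 14.7).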

How the results depend on the processing

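By adjusted p alone, 0 of the 10 members passed with all 8 libraries (36.3% of all genes) and 1 by DESeq2 (43.6%). The count was 9 by limma-voom with sample quality weights (68.3%) and 7 with the GC trend removed (52.1%). It was 5 with the replicate block and the GC trend removed (41.9%). With the GC trend removed and without vehicle replicate 3 it was 8 (58.2%). Leaving out 1 library in turn gave 0 to 6, with 6 without vehicle replicate 3 (57.1% of all genes). With the fold limit added the count stayed at 0 in all alternatives run. STAG2 came closest, with a lowest log2 fold change over the 22 fits of -0.583, just short of the 1.5-fold limit. Over the 22 fits, the adjusted p of STAG1 ran from 0.000654 to 0.141 and passed in 6, and that of STAG2 ran from 7.98e-07 to 0.425 and passed in 5. STAG1 and WAPL were positive in all 22. With 1 library left out, the log2 fold change ran from -0.56 to -0.24 for STAG2 and from -0.24 to -0.04 for PDS5A. The sign of CTCF turned with the GC trend removed (-0.0040) and with the replicate block added to that (-0.0021). The sign of SMC3, 0.01 in the edgeR fit, turned with upper-quartile scaling (-0.0058), total-count scaling (-0.0025), no filter (-0.0051), quality weights (-0.22), the GC trend removed (-0.11), the replicate block with it (-0.11), without vehicle replicate 3 (-0.17) and with both (-0.17), and ran from -0.17 to 0.11 with 1 library left out. The cause was not tested. The 4 called genes of the 5 lists became 7 with the replicate block and the GC trend removed, and 2 with the GC trend removed without vehicle replicate 3. They became 14 by adjusted p alone, and ran from 3 to 7 with 1 library left out, with 7 without vehicle replicate 2. Calls among all genes, 3789, ran from 2486 (without TP-472 replicate 3) to 4110 with 1 library left out. They were 4225 by DESeq2, 5090 without a filter, 2672 with a filter of 5 CPM and 5102 by adjusted p alone. With 1 library left out, the log2 differences ran from 0.70 to 0.84 for STAG1/STAG2, 0.17 to 0.30 for PDS5A/PDS5B, -0.87 to -0.52 for NIPBL/WAPL and 0.24 to 0.44 for CTCF/RAD21, all in the same direction. The median r over member pairs was 0.31 by Spearman correlation and 0.36 without vehicle replicate 3.

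Libraries with the same replicate number did not deviate together (correlations of -0.0554, 0.116, -0.171 and -0.177), so the numbers were not used as pairs. The largest correlation between a vehicle and a TP-472 library was 0.398, for vehicle replicate 1 and TP-472 replicate 4. A replicate block gave 3055 calls among all genes and 0 among the members. The number of libraries limits the permutation tests to a p of 0.0286.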
